A study of Homo sapiens with 6 samples.

Results

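The transcript levels of NFE2L2, the gene of the transcription factor NRF2, and of 9 genes tied to it were examined in RNA sequencing of WM164 cells, an established human melanoma line with the BRAFV600E genotype. The genes were KEAP1, SQSTM1, NQO1, HMOX1, TXN, TXNRD1, PRDX1, SRXN1 and OSGIN1. They were picked by gene symbol with earlier results of these data known, and all 10 had a row among the 60504 genes of the table. The cells had been stably transfected either with an empty vector (EV, n = 3 libraries) or with a vector for HDAC8, a class I lysine deacetylase (HDAC8, n = 3 libraries). Per the study's methods both populations were kept in hygromycin, so the control cells also carried a vector and its selection. The comparison of HDAC8 with EV asked which transcripts differed once the deacetylase had been introduced. The labels number the libraries of each group 1 to 3 as biological replicates and do not say what separated them, so the p-values measure the spread between these libraries of 1 cell line.

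Each library held between 34741083 and 42041462 estimated read counts. Counts are given below after division by DESeq2 size factors (normalised counts), and a call of higher or lower needed both an adjusted p under 0.05 and a log2 fold change of 0.58 or more either way, as the study's methods set it. The HDAC8 transcript itself was at 383.8, 404.4 and 478.8 normalised counts in EV and at 484.8, 445.5 and 473.7 in HDAC8, and its difference of 0.15 on the log2 scale (SE 0.28) had a DESeq2 adjusted p of 0.856. The transcript level therefore does not check the labels, and the groups are named below as the libraries labelled EV and HDAC8. By chi-square and mitochondrial share, HDAC8 replicate 1 stood apart from the other 2 of its group. The chi-square of its counts against theirs was 153.4 and 101.7 per degree of freedom, against 26.0 between those others and 39.0 to 47.3 among the EV libraries. Its share of mitochondrially encoded counts was 4.46%, against 7.63% and 7.94% in the rest of the group and 9.66% to 12.8% in EV. On the second principal component of the most variable genes, HDAC8 replicates 1, 2 and 3 lay at 43.72, -47.13 and 8.37. By that measure replicate 2 was as far out, on the other side. The melanocytic marker SOX10 was at 9685.5 normalised counts or more in every library, and lower in every HDAC8 library (log2 fold change -0.33, DESeq2 adjusted p = 0.211). The summed level of 8 melanocytic markers was 244960.8 to 328760.5 in EV and 137043.5 to 182217.7 in HDAC8, with 5 of them called lower and 0 higher. Most of that sum was PMEL (200031.7 in EV and 110586.9 in HDAC8 on average). MLANA fell the furthest of those called, from 8664.7 ± 366.7 in EV to 303.1 ± 67.8 in HDAC8. MITF overlapped between the groups. Of 5 leukocyte markers 2 (CD3E and CD68) were called higher and their sum was 2357.3 to 3354.7 in EV and 4321.6 to 6278.9 in HDAC8, while PTPRC had at most 3 counts in any library. Of 6 fibroblast markers 1, PDGFRA, was called higher, DCN was at 0 in all libraries, and LUM was at 2205.0 to 2662.4 in EV and at 1054.3 to 2157.9 in HDAC8 (adjusted p = 0.0778), so that the sum of the list was 2497.3 to 2894.1 in EV and 1463.0 to 2423.1 in HDAC8. By DESeq2, 0 of the 5 endothelial and 5 keratinocyte markers were called or had an unadjusted p under 0.05, with CDH5 and KRT1 at 0 in all (limma called 1 keratinocyte marker lower). The part of these markers in the results below was not tested. In such bulk samples fewer cells of one state and less RNA per cell cannot be told apart.

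NRF2 is held at a low level by KEAP1, an adaptor that presents it to a CUL3 ubiquitin ligase. Oxidants and electrophiles modify cysteines of KEAP1, NRF2 then accumulates, pairs with a small MAF protein and binds antioxidant response elements in the promoters of its targets. The targets detoxify quinones, break down heme, reduce thioredoxin and peroxiredoxins, supply cysteine for glutathione and provide NADPH. Melanocytic cells carry an added oxidant load from pigment synthesis. Transcript levels do not measure NRF2 protein, which is mainly controlled by degradation.

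Promoter sequence was searched for TGACNNNGC, the core letters of the antioxidant response element, on both strands, in RefSeq windows from 250 bases before to 50 bases after a transcription start (GRCh38.p14). Windows were given for 8 of the 10 genes, 13 windows in all, and none for HMOX1 or PRDX1. The core was found in 2 of these 8 genes, KEAP1 and TXNRD1, and in 3 of the 13 windows. Of all 35116 windows 13.3% held it, and of all 27305 genes with a window 16.1% did. TGACTCA, the AP-1 motif, whose letters also start an antioxidant response element when GC follows, was found in 1 of the 8 genes, OSGIN1, and in 1 of the 13 windows. It was in 6.05% of all genes with a window and in 4.95% of all windows. The E-box letters CACGTG and CATGTG, which MITF can bind, were in none of the 13 windows, against 7.26% and 11.1% of all windows. The stretches that held a match are shown because they hold the letters NRF2 or AP-1 can contact near a start, with the matched letters in capitals and positions counted from the start. They are KEAP1 at chr19:10502774-10502845 on the minus strand with matches at -54 to -46 and -31 to -23, TXNRD1 at chr12:104215660-104215708 and, from a downstream start, at chr12:104286910-104286958 on the plus strand, and OSGIN1 at chr16:83953123-83953169 on the plus strand, read along the gene. A second match in the upstream TXNRD1 window lay across the start itself and is not shown.
KEAP1: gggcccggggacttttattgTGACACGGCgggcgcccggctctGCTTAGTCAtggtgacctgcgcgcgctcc
TXNRD1 upstream start: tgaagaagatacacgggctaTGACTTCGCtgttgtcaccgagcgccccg
TXNRD1 downstream start: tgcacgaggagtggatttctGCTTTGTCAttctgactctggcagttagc
OSGIN1: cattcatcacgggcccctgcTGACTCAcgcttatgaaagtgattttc
A match describes letters only. NQO1, TXN, SRXN1, SQSTM1 and NFE2L2 had none of these motifs in their windows, which leaves more distant elements unexamined.

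In the comparison of HDAC8 with EV, 4 of the 10 genes were called lower (HMOX1, NQO1, OSGIN1 and TXN) and 0 were called higher. Across all 21021 genes with an adjusted p, 5.44% were called lower and 5.57% higher, and among the genes with a mean of at least 50 normalised counts, where all 10 lie, 6.64% were called lower and 7.38% higher. By edgeR and by limma 0 of the 10 were called higher as well. At an unadjusted p under 0.05 the DESeq2 test put 7 of the genes lower and 2, KEAP1 and PRDX1, higher. A further pair, NFE2L2 and TXNRD1, had an adjusted p under 0.05 with a change smaller than the fold minimum. Of all genes with a mean of at least 50, 2.93% did so. All HDAC8 libraries lay below all EV libraries for 6 of the 10 genes and above them for 2, where 12.7% and 11.3% of all 26162 genes tested did so. The median log2 fold change was -0.54 over the 10 genes and 0.00 over all genes tested.

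**Figure D1:**
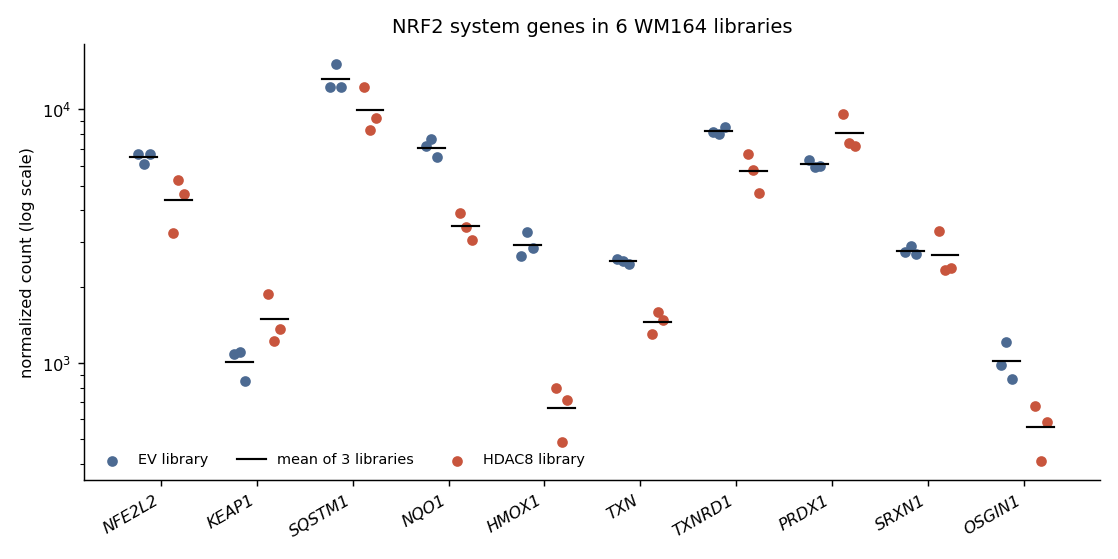
Normalised counts of the 10 genes, side by side on a log scale, in the 3 EV and 3 HDAC8 libraries (points, 1 per library, with the group mean as a black bar). HMOX1, NQO1, TXN and OSGIN1 lie lower in every HDAC8 library, KEAP1 and PRDX1 lie higher in every one, and the SQSTM1 and SRXN1 points of both groups overlap.

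Per length, the transcripts were ordered in EV cells from PRDX1 at 378.7 ± 42.2 (SD, n = 3) TPM, a count scaled to transcript length and to the library's total, down to KEAP1 at 23.3 ± 4.24 TPM. SQSTM1 (272.8 ± 26.3 TPM) and TXN (188.6 to 224.1 TPM) followed PRDX1. NQO1 at 165.1 ± 18.4 TPM and NFE2L2 at 155.8 ± 17.7 TPM overlapped in their libraries. So did TXNRD1 (125.2 ± 9.99 TPM) and HMOX1 (110.4 ± 7.61 TPM), and OSGIN1 (31.2 ± 5.06 TPM) and KEAP1. In HDAC8 cells PRDX1 was again at the top with 566.1 ± 96.9 TPM. HMOX1 stood 9th at 28.5 ± 7.18 TPM, in reach of KEAP1 above it (38.5 ± 9.07 TPM) and OSGIN1 below it (19.4 ± 4.87 TPM). TXN, NFE2L2, TXNRD1 and NQO1, between 91.3 and 131.1 TPM on average, each overlapped the next in that order.

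Of the 3 regulators, NFE2L2, KEAP1 and SQSTM1, 0 were called by DESeq2, and NFE2L2 alone had an adjusted p under 0.05, while all 3 had an unadjusted p under 0.05. NFE2L2 (ENSG00000116044, chr2:177218667-177392756, minus strand, GRCh38) was at 6651.3, 6086.4 and 6661.4 normalised counts in EV and at 3267.3, 5254.9 and 4628.0 in HDAC8. Every HDAC8 library lay below every EV library, and replicate 1 was the lowest. The log2 fold change of NFE2L2 was -0.56 (SE 0.18, 95% interval -0.91 to -0.21, DESeq2 adjusted p = 0.017), or 67.8% of the EV level with an interval of 53.2% to 86.3%. This passed the test but not the fold minimum. The adjusted p was above 0.05 without EV replicate 1 (0.112), EV replicate 3 (0.111) or HDAC8 replicate 3 (0.0565), and without HDAC8 replicate 1 the value was -0.39 (adjusted p = 0.0103). On the TPM scale, which divides by the whole library, the lowest EV library (139.0 TPM) and the highest HDAC8 library (140.1 TPM) of NFE2L2 overlapped. NFE2L2 shares 3509 exonic bases on the opposite strand with HNRNPA3, which had 9362.62 to 11314.54 estimated counts in EV, and 2037 bases on its own strand with an unnamed gene of at most 126.0 counts, so its reads cannot be fully separated if the counting did not use strand.

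KEAP1 (ENSG00000079999, chr19:10486125-10503558, minus strand) lay on the other side. Its normalised counts were 1083.2, 1106.7 and 847.2 in EV and 1870.1, 1225.9 and 1362.3 in HDAC8. All HDAC8 libraries were above all EV libraries, with replicate 1 the highest, and the log2 fold change was 0.55 (SE 0.23, 95% interval 0.10 to 1.01, DESeq2 adjusted p = 0.0961). The interval excludes 0 before adjustment, and the difference did not pass the test after it. Without HDAC8 replicate 1 the log2 fold change of KEAP1 was 0.35 (adjusted p = 0.31), and without EV replicate 3 it was 0.44 (adjusted p = 0.406). The KEAP1 to NFE2L2 ratio of counts within a library, chosen after the values were seen, was 0.163, 0.182 and 0.127 in EV and 0.572, 0.233 and 0.294 in HDAC8. Because KEAP1 lay higher and NFE2L2 lower in every HDAC8 library, the groups of this ratio could not overlap. The two-sided exact permutation p was thus fixed beforehand at 0.1, the smallest that 3 against 3 libraries allow.

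SQSTM1 (ENSG00000161011, chr5:179806398-179838078, plus strand) encodes p62, an autophagy receptor that binds KEAP1 and takes it to degradation. Its normalised counts were 12219.4, 15115.7 and 12297.3 in EV and 12247.3, 8254.6 and 9230.0 in HDAC8. HDAC8 replicate 1 lay within the EV range and the other 2 lay below it. The log2 fold change of SQSTM1 was -0.41 (SE 0.17, 95% interval -0.74 to -0.09, DESeq2 adjusted p = 0.0825). Without HDAC8 replicate 1 it was -0.60 with an adjusted p of 1.86e-05 and SQSTM1 was called lower. SQSTM1 exons overlap MRNIP on the opposite strand over 1582 bases.

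The quinone and heme enzymes fell. HMOX1 (ENSG00000100292, chr22:35380361-35394214, plus strand), heme oxygenase 1, which opens heme to biliverdin, iron and carbon monoxide, had the largest change of the 10. It was at 2648.8, 3294.9 and 2838.1 normalised counts in EV and at 794.4, 486.5 and 714.4 in HDAC8, so the highest HDAC8 library was far under the lowest EV library. The log2 fold change of HMOX1 was -2.14 (SE 0.22, 95% interval -2.56 to -1.71, DESeq2 adjusted p = 8.72e-21), which leaves 22.7% of the EV level (17.0% to 30.5%). By size HMOX1 ranked 142 of the 959 genes called lower with a mean of at least 50. HMOX1 was also set against its constitutive isoenzyme HMOX2 within each library, though the level of HMOX2 itself is not given here. The HMOX1 to HMOX2 ratio of counts, picked after the values were seen, was 2.64, 2.87 and 2.40 in EV and 0.730, 0.628 and 0.706 in HDAC8 (exact permutation p = 0.1, the smallest possible). Since the HMOX1 groups already lay far apart, this p adds no separate support.

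NQO1 (ENSG00000181019, chr16:69706996-69726668, minus strand), the NAD(P)H quinone reductase often used to read out NRF2 activity, was at 7137.8, 7608.8 and 6468.3 normalised counts in EV and at 3913.7, 3437.0 and 3048.0 in HDAC8. The groups were wide apart relative to the spread within each. NQO1 fell by 1.03 on the log2 scale (SE 0.15, 95% interval -1.33 to -0.73, DESeq2 adjusted p = 1.02e-09), to 49.0% of EV (39.9% to 60.3%). Its paralogue NQO2, which uses another cosubstrate, was at 1425.7 ± 74.1 in EV and 1583.5 ± 41.1 in HDAC8, with a log2 fold change of 0.15 (adjusted p = 0.717). The NQO1 to NQO2 ratio of counts, picked after the values were seen, was 5.31, 5.28 and 4.34 in EV against 2.41, 2.16 and 1.98 in HDAC8. NQO1 lay lower and NQO2 higher in every HDAC8 library. The exact permutation p of 0.1, the smallest possible, was therefore fixed beforehand.

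**Figure D2:**
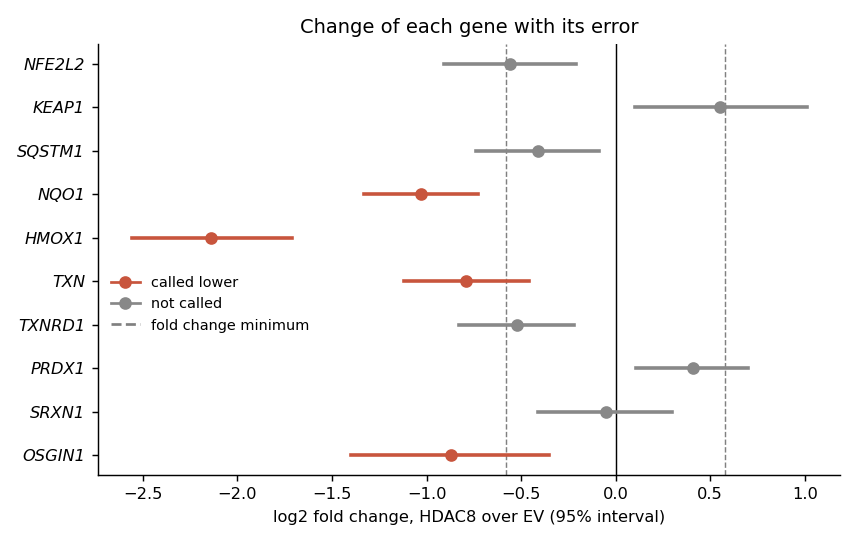
DESeq2 log2 fold change of HDAC8 over EV for each of the 10 genes (points) with its 95% interval (lines), and the fold minimum of 0.58 in either direction. HMOX1 at -2.14 and NQO1 at -1.03 have intervals wholly past the minimum, while the intervals of TXN and OSGIN1 reach inside it.

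Of the 4 genes of the thioredoxin and peroxiredoxin chain, TXN was called lower and the other 3 were not called. TXN (ENSG00000136810, chr9:110243810-110256507, minus strand), thioredoxin itself, was at 2577.5, 2514.1 and 2454.9 normalised counts in EV and at 1306.6, 1582.3 and 1476.6 in HDAC8. All HDAC8 libraries were lower, and TXN fell by 0.79 on the log2 scale (SE 0.17, DESeq2 adjusted p = 8.53e-05), to 57.8% of EV (45.9% to 72.8%). TXNRD1 (ENSG00000198431, chr12:104215779-104350307, plus strand), the cytosolic reductase that recharges thioredoxin with NADPH, was at 8159.2, 7980.5 and 8492.8 in EV and at 6695.3, 5785.4 and 4678.1 in HDAC8. TXNRD1 was lower in every HDAC8 library, and its log2 fold change of -0.52 (SE 0.16, adjusted p = 0.00992) passed the test and not the fold minimum. The adjusted p of TXNRD1 was above 0.05 without EV replicate 1 (0.0698), EV replicate 3 (0.093) or HDAC8 replicate 3 (0.126, at -0.40). On the TPM scale the TXNRD1 groups touched, with 115.5 TPM in the lowest EV library and 115.8 TPM in HDAC8 replicate 1.

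PRDX1 (ENSG00000117450, chr1:45510914-45542732, minus strand), a peroxidase that thioredoxin reduces, was at 6297.9, 5914.6 and 5996.5 normalised counts in EV and at 9597.4, 7378.0 and 7170.8 in HDAC8. Every HDAC8 library was above every EV library, with replicate 1 the highest, and the log2 fold change of PRDX1 was 0.41 (SE 0.15, 95% interval 0.11 to 0.70, DESeq2 adjusted p = 0.0546). It was 0.26 without HDAC8 replicate 1 (adjusted p = 0.084) and 0.47 without HDAC8 replicate 2 (adjusted p = 0.0416). SRXN1 (ENSG00000271303, chr20:646615-653200, minus strand), sulfiredoxin, which repairs overoxidised peroxiredoxins, was at 2731.6, 2882.1 and 2684.5 in EV and at 3301.5, 2326.9 and 2358.7 in HDAC8. HDAC8 replicate 1 lay above the EV range of SRXN1 and the other 2 below it. Its log2 fold change was -0.05 (SE 0.18, adjusted p = 0.931), with a 95% interval of -0.41 to 0.30 that leaves room for a change of that size in either direction. The PRDX1 to SRXN1 ratio of counts was 2.31, 2.05 and 2.23 in EV and 2.91, 3.17 and 3.04 in HDAC8 (exact permutation p = 0.1, the smallest possible), while the TXNRD1 to TXN ratio overlapped (p = 0.3). Both ratios were picked after the values were seen.

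OSGIN1 (ENSG00000140961, chr16:83931311-83966332, plus strand) encodes a growth inhibitor induced by oxidative stress. It was at 986.7, 1213.2 and 867.9 normalised counts in EV and at 677.2, 412.7 and 586.9 in HDAC8, lower in all HDAC8 libraries. The log2 fold change of OSGIN1 was -0.87 (SE 0.27, 95% interval -1.40 to -0.35, DESeq2 adjusted p = 0.0127), or 54.7% of EV (38.0% to 78.6%). The call was the least firm of the 4. It was lost without EV replicate 1 (-0.90, adjusted p = 0.0641), EV replicate 2 (-0.73, adjusted p = 0.135) or HDAC8 replicate 2 (-0.69, adjusted p = 0.0668). OSGIN1 shares 457 exonic bases on its own strand with MLYCD.

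Leaving out each library in turn kept HMOX1 between -2.29 and -1.95, NQO1 between -1.13 and -0.94 and TXN between -0.85 and -0.72 on the log2 scale, and all 3 were called lower in each of the 14 alternative fits of these values. Without HDAC8 replicate 1, 6 of the 10 genes were called lower, where 6.65% of all genes were. TXNRD1 (-0.65, DESeq2 adjusted p = 3.07e-06) and SQSTM1 were the genes added. Without EV replicate 1, 3 of the 10 were called lower, with 3.75% of all genes. Without HDAC8 replicate 2, KEAP1 was called higher (0.68, adjusted p = 0.047), with 5.48% of all genes, and NFE2L2 was called lower (-0.71, adjusted p = 0.00186). NFE2L2 was also called without EV replicate 2 (-0.60, adjusted p = 0.0358). With limma, which called 4.14% of all genes lower, 5 of the 10 were, NFE2L2 among them at -0.60. A test against the fold minimum itself called only HMOX1 lower, with 1.38% of all genes.

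**Figure D3:**
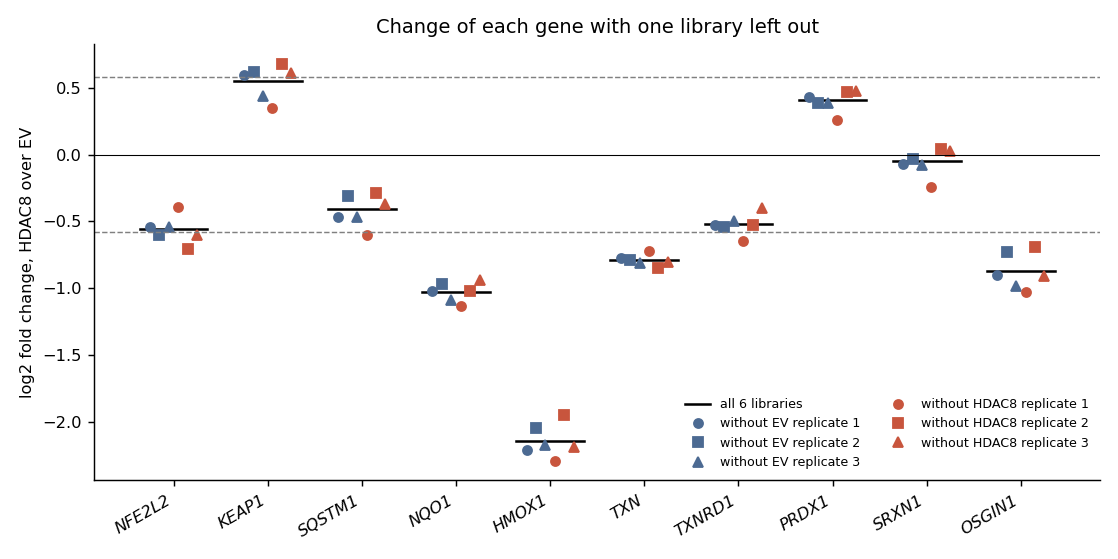
Log2 fold change of HDAC8 over EV for each of the 10 genes with all libraries and with each library left out in turn. SRXN1 crosses 0, from -0.24 to 0.04, the other 9 genes keep their direction, and SQSTM1 moves from -0.41 to -0.60 without HDAC8 replicate 1.

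The other genes of the pathway came from 5 lists, also chosen with earlier results of these data known. The lists held 108 genes in all, of which 99 had an adjusted p. Of these, 20 were called lower and 3 higher, where 5.44% and 5.57% of all genes were. The median log2 fold change was -0.18 over the 101 listed genes tested and -0.22 over the 92 with a mean of at least 50. Among the 38 other NRF2 targets, 9 were called lower and 0 higher of 33 with an adjusted p, where 5.44% of all genes were called lower. The median log2 fold change was -0.32 over the 34 of them tested. All 9 were among the 29 with a mean of at least 50, and 6.64% of all genes with such a mean were called lower. The same counts of 9 lower and 0 higher came from edgeR and from limma. At an unadjusted p under 0.05 there were 13 lower and 0 higher. SLC7A11, the cystine importer that feeds glutathione synthesis, was at 30942.1, 28424.3 and 31031.5 normalised counts in EV and at 7799.2, 13233.0 and 11817.3 in HDAC8. It fell by 1.46 on the log2 scale (SE 0.17, DESeq2 adjusted p = 5.9e-15), to 36.3% of EV. EPHX1, microsomal epoxide hydrolase, fell by 1.51 (adjusted p = 6.62e-15), and IDH1, a cytosolic source of NADPH, by 1.15 (adjusted p = 6.2e-07). PIR, a nuclear iron-binding protein, fell by 0.95 (adjusted p = 7.72e-07). GCLM, the modifier subunit of glutamate cysteine ligase, had a log2 fold change of -0.74 (adjusted p = 0.00916) and lost its call without EV replicate 1 (-0.60, adjusted p = 0.141) or HDAC8 replicate 1 (-0.53). GCLC, the catalytic subunit, was at -0.18 (adjusted p = 0.709), with overlapping groups.

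FTH1, the ferritin heavy chain that stores the iron heme oxygenase frees, fell by 0.72 (SE 0.12, DESeq2 adjusted p = 8.85e-08) from 22705.0 ± 1236.0 to 13798.1 ± 447.3 normalised counts. The light chain FTL had a log2 fold change of -0.53 (adjusted p = 0.00853), under the fold minimum. PGD (-0.60, adjusted p = 0.00308) and TKT (-0.59, adjusted p = 0.00307), enzymes of the pentose phosphate pathway, were also called lower and are named after their values were seen. PGD lost its call without EV replicate 2 (-0.55), HDAC8 replicate 2 (-0.53) or HDAC8 replicate 3 (-0.52), and TKT without EV replicate 2 (-0.43) or HDAC8 replicate 2 (-0.49). AKR1B10, AKR1C2 and AKR1C3, aldo-keto reductases and known NRF2 targets in many human cells, were at 0 counts in all 6 libraries, which allows up to 3 counts per library, or 2.57 to 3.27 normalised.

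Further stretches of RefSeq promoter sequence, from targets that fell, are shown because each holds the TGACNNNGC letters close to the start. GCLM is at chr1:93909436-93909484 on the minus strand with its match at -34 to -26, and EPHX1 at chr1:225825256-225825304 on the plus strand with its match at -78 to -70.
GCLM: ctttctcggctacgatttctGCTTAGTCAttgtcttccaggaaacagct
EPHX1: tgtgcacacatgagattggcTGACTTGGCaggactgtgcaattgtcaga
Of the 90 listed genes with a window, 20 held the letters, and of the 18 called genes with a window, 5 did, beside 16.1% of all 27305 genes with a window.

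Of 19 partners and controllers of NRF2, 2 were called higher and 0 lower by DESeq2, with a median log2 fold change of -0.01. That is near the 7.38% of all genes with a mean of at least 50 that were called higher. At an unadjusted p under 0.05 there were 2 higher and 1 lower, edgeR called 2 higher and 0 lower, and limma 1 higher and 0 lower. MAFK, a small MAF partner, was at 446.7, 483.8 and 606.8 normalised counts in EV and at 1318.5, 713.8 and 838.5 in HDAC8, a log2 fold change of 0.90 (SE 0.29, adjusted p = 0.0188). DPP3, a peptidase that can bind KEAP1, was at 908.0 ± 122.8 in EV and 1430.6 ± 246.3 in HDAC8 (0.66, adjusted p = 0.0283). Neither call was firm. MAFK lost it without EV replicate 1 (0.81), EV replicate 2 (0.86) or HDAC8 replicate 1 (0.60), and DPP3 without any library except HDAC8 replicate 2, with values between 0.50 and 0.72. The other small MAF genes MAFF (0.03, adjusted p = 0.97) and MAFG (-0.37, adjusted p = 0.27), the repressor BACH1 (0.23, adjusted p = 0.527) and CUL3 (-0.01, adjusted p = 0.991) were not called.

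In the thioredoxin, peroxiredoxin and glutaredoxin system outside the 10 genes, 3 of 21 genes were called lower and 0 higher, with a median of -0.12, beside 6.64% of all genes with a mean of at least 50 called lower. At an unadjusted p under 0.05 there were 5 lower and 3 higher. By edgeR 3 were called lower and by limma 4, with 0 higher in both. GLRX2, a mitochondrial glutaredoxin, fell by 1.37 on the log2 scale (SE 0.31, DESeq2 adjusted p = 0.000298). The glutaredoxins GLRX (0.80, adjusted p = 0.122) and GLRX5 (0.35, adjusted p = 0.563) lay on the higher side and were not called. SESN2, a stress-inducible sestrin that aids the removal of KEAP1, fell by 1.23 (SE 0.23, adjusted p = 3.81e-06), and GLRX3, a cytosolic glutaredoxin that carries iron-sulfur clusters, by 0.98 (SE 0.20, adjusted p = 3.29e-05). PRDX6 was at -0.56 (adjusted p = 0.0029), under the fold minimum, and TXNRD2, the mitochondrial counterpart of TXNRD1, at 0.73 (adjusted p = 0.153) with HDAC8 replicate 1 at 1061.2 normalised counts against 440.4 and 597.8 in the rest of its group.

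Among 20 superoxide and peroxide enzymes, 6 were called lower and 1 higher of 17 with an adjusted p, with a median of 0.00, beside 5.44% lower and 5.57% higher of all genes. By edgeR 6 were lower and 2 higher, by limma 6 lower and 1 higher, and at an unadjusted p under 0.05 there were 7 lower and 2 higher. SOD3, the secreted superoxide dismutase, was at 2802.9, 3500.4 and 2326.9 normalised counts in EV and at 7156.2, 8030.4 and 8602.7 in HDAC8. It rose by 1.46 on the log2 scale (SE 0.17, DESeq2 adjusted p = 2.54e-15). The mitochondrial SOD2 fell by 0.97 (adjusted p = 4.41e-06), CAT, catalase, by 1.11 (adjusted p = 4.52e-07), GPX1, a selenium-dependent glutathione peroxidase, by 0.91 (adjusted p = 6.3e-05), and CYBA, the p22phox subunit of NADPH oxidases, by 0.93 (adjusted p = 0.000138). CCS, the copper chaperone of SOD1, named after its values were seen, was at 146.8, 244.7 and 217.7 normalised counts in EV and at 668.7, 396.3 and 254.8 in HDAC8, higher in all HDAC8 libraries, with a log2 fold change of 1.12 that did not pass the test (adjusted p = 0.0558). NOX4, which works with CYBA, was low throughout, at 161.5, 81.3 and 77.8 normalised counts in EV and 0, 1.0 and 25.0 in HDAC8 (adjusted p = 0.0158). Its call was lost without any 1 of the EV libraries (adjusted p of 0.217, 0.0682 and 0.058). NOX5 fell below the count minimum for naming and is given because it completes the count, chosen after its values were seen. It was at 68.2, 4.7 and 41.4 in EV and at 0 in all HDAC8 libraries. The EV mean of 38.1 was 12.8-fold a floor of 3 counts per HDAC8 library, 2.97 normalised on average. EV replicate 2 lay close to that floor, so this fold does not bound the change over the spread of the EV libraries. The call of NOX5 was lost without EV replicate 1 (adjusted p = 0.109).

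Of 10 selective autophagy receptors and their partners, the group to which p62 belongs, 9 had a mean of at least 50. By DESeq2, 2 were called lower and 0 higher, as by edgeR and limma. Of all genes with a mean of at least 50, 6.64% were called lower. At an unadjusted p under 0.05 there were 3 lower and 2 higher. OPTN, optineurin, fell by 1.01 on the log2 scale (SE 0.26, DESeq2 adjusted p = 0.00166), from 756.5 ± 64.8 to 375.8 ± 35.8 normalised counts. GABARAPL1, an ATG8 family protein, was at -0.65 (adjusted p = 0.017), and its call was lost without any 1 of the EV libraries or HDAC8 replicate 3, with values between -0.69 and -0.53.

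**Figure D4:**
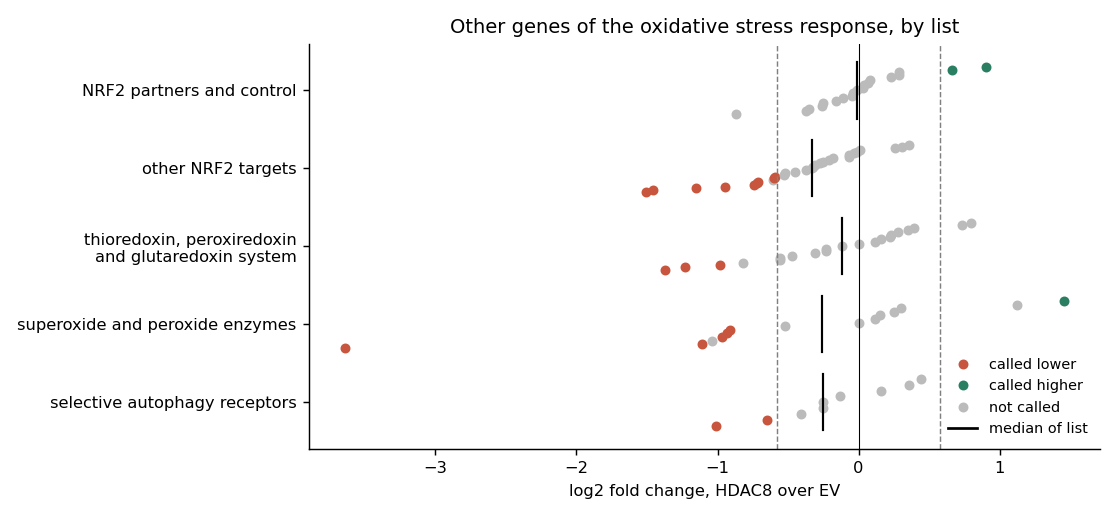
Log2 fold change of HDAC8 over EV for each gene of the 5 lists with a mean of at least 50 normalised counts (points), coloured by call, 1 row per list, with the median of the plotted genes (black bar) and the fold minimum of 0.58 either way (dashed lines). The called targets and the called glutaredoxins GLRX2 and GLRX3 lie below 0, while GLRX at 0.80 and GLRX5 at 0.35, not called, lie above it. Among the superoxide and peroxide enzymes SOD3 at 1.46 is the called gene above 0, with CCS at 1.12 not called.

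By likeness of pattern over the 6 libraries, Pearson r of log2 counts among 14451 genes with a mean of at least 50, the 5 genes nearest to NFE2L2 were ODC1, PFDN4, B3GNT2, LPGAT1 and GDI2, with r from 0.9981 to 0.9991. They encode ornithine decarboxylase of polyamine synthesis, a prefoldin subunit, a glycosyltransferase, an acyltransferase and a regulator of RAB GTPases. Among the 5 nearest to HMOX1 were NDN, UBE2L6, BCAM and PTK7, with r from 0.9954 to 0.9984. PTK7, a receptor-like pseudokinase, had a log2 fold change of -2.51. At least 0.99 was reached by 47 genes for NFE2L2 and by 25 for HMOX1. With 6 libraries in 2 groups these values describe the order of the libraries, and the libraries share depth and group.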

How the data were processed

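RNA from WM164 cells was sequenced in paired ends. Per the study's methods and the submitters' processing notes, the authors trimmed reads with Trimmomatic, aligned them with STAR and deposited RSEM expected counts per gene, not normalised. The genome build, annotation release, strand setting and handling of duplicates are not given in the sources used here, and the RNA extraction kit named in the labels differs from that in the methods. Coordinates and canonical transcript lengths come from GENCODE 44 by Ensembl ID (56558 of 60504 genes), and 3508 genes had no symbol.

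Expected counts were rounded, and genes with a total of at least 10 were tested with DESeq2 1.42.0 (Wald test, Benjamini-Hochberg adjustment over all genes, R 4.3.3). DESeq2 gave 21021 of 26162 genes an adjusted p. Alternatives were edgeR 4.0.16 quasi-likelihood and limma 3.58.1 voom with TMM, total-count and upper-quartile size factors, other count filters, a replicate block, a test against the fold minimum, no mitochondrially encoded genes, and each library left out. TPM was computed from the counts and the canonical length. The plot of counts has a log axis without a pseudocount. Correlations between genes or libraries and the principal components used log2 of normalised counts with a pseudocount of 1. The fitting script was tested on simulated data. Overlaps of exons were counted on GENCODE.

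The members and gene lists were chosen with earlier results of these data known. All 10 members are named. From each list, up to 6 genes with the largest change were named among called genes whose groups do not overlap and whose mean reached 50. Other listed genes, and ratios of genes, were picked after their values were seen. For NFE2L2 and the member with the largest change, the 5 genes of highest Pearson r were taken. Some genes that these rules reach are not reported here. Depth was 34741083 to 42041462 counts per library, and count floors cover counting error only.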

Additional observations from a re-analysis of the deposited data

How the results depend on the processing

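Of 140 alternative values of the 10 genes, 128 kept their sign and their call. OSGIN1 lost its call in 3 leave-one-out fits, NFE2L2, KEAP1, SQSTM1 and TXNRD1 gained one in 7 fits, and SRXN1 changed sign, its values without 1 library running from -0.24 to 0.04. No scaling turned a direction among the 10. A test against the fold minimum left 292 genes higher and 291 lower over all genes (1170 and 1143 in the main test), 1 of the 10 genes lower and, of the listed pathway genes, 1 higher and 3 lower. With at least 10 counts in every library 5 listed genes were higher. Without 1 library, genes called lower numbered 746 to 1378 over all genes (746 without EV replicate 3), genes of the 10 called higher 0 to 1, and listed genes called higher 1 to 4. Of 320 alternative values of the 23 called listed genes, 29 lost the call, PGD (-0.55) and TKT (-0.54) also under total-count size factors. Libraries with the same number did not deviate together (correlations of -0.027, -0.066 and 0.040), so the numbers were not read as pairs. With the replicate block 5 of the 10 genes were called lower, NFE2L2 added at -0.59, and of the listed genes 1 was called higher. The median log2 fold change over genes with a mean of at least 50 was -0.001 in the main test and ran from -0.024 (limma) to 0.04 (total-count size factors) between scalings. The causes of these changes were not tested.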
